A study of Mus musculus and Homo sapiens with 41 samples.

Results

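The Iroquois genes, Irx1 to Irx6, were followed through CUT&Tag peak lists of H2AK119ub (histone H2A ubiquitylated by Polycomb). The genes were taken by symbol from the GENCODE annotation, 6 of 21911 mouse protein-coding genes and, in upper case, 6 of 20007 human ones. In the mouse they lie in 2 clusters of 3 genes. On mm10 chromosome 13 stand Irx1 (71957921 to 71963723, minus strand), Irx2 (72628820 to 72634198) and Irx4 (73260479 to 73269608). On mm10 chromosome 8 stand Irx3 (91798525 to 91802067, minus strand), Irx5 (92357625 to 92376286) and Irx6 (92674288 to 92680956). From first to last gene the clusters measure 1312 and 882 kb, and the only protein-coding starts inside each are those of its 3 Irx genes. Each gene is represented by the bases that listed peaks cover in the 10-kb window from 5 kb before to 5 kb after its transcription start site (TSS), and each cluster by the bases covered from its first gene to its last.

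There were 39 H2AK119ub libraries, 3 in each group, and 2 BAP1 libraries of WT mouse embryonic stem cells (mESCs). The mESC groups were untransfected Tet2 KO and WT cells, Tet2 KO cells given the siRNAs siMbd6, siNsun2 or the control siNC, and WT cells given siNC, all grown with serum, LIF, CHIR99021 and PD0325901. The HSPC groups were Tet2 KO cells given shMbd6 or the control shNC and WT cells given shNC, all of them Lin-c-Kit+ bone marrow cells of Tet2-/- and WT C57BL/6 mice aged 6 to 8 weeks, electroporated and kept in culture for 7 days. The K-562 groups, of a human chronic myeloid leukaemia line, were TET2 KO cells given siMBD6, siNSUN2 or siNC and WT cells given siNC. The sources used here do not say whether the mESC or K-562 KO cells descend from 1 clone or whether the replicates were separate cultures or animals, so the p-values measure only the spread between these samples. Peak lists hold no RNA, so cell type, TET2 loss and knockdown could not be checked at marker or target genes.

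The libraries differ widely in how much they list. Peaks covered 11.6 to 16.9 Mb in untransfected KO mESCs and 9.66 to 16.2 Mb in untransfected WT mESCs. Among transfected mESCs the total was 2.36 to 5.64 Mb with siMbd6, 1.90 to 4.25 Mb with siNsun2 and 1.82 to 4.30 Mb with siNC in KO cells, and 10.0 to 17.0 Mb with siNC in WT cells. In every mESC group replicate 1 had the lowest total. HSPC libraries covered 3.43 to 3.95 Mb with shMbd6 and 0.648 to 0.681 Mb with shNC in KO cells, and 1.89 to 2.24 Mb with shNC in WT cells. The lists carry no read counts, so how deeply a library was read cannot be seen, and a window listed at 0 may be bare or merely under-read. For that reason each comparison also gives values after each library was scaled to an equal total covered length, called scaled values here.

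Irx proteins are homeodomain transcription factors of the TALE class, recognised by extra residues in the homeodomain, and they act in patterning of the nervous system, heart, limb and kidney. Irx4 is known for its part in the ventricles of the heart, and Irx3 and Irx5 act together in limb and heart development. In embryonic stem cells such developmental genes are classic targets of Polycomb, whose complex PRC1 places H2AK119ub, while the BAP1 deubiquitylase complex, in which MBD6 can take part, removes it. TET2 oxidises methylated cytosine in DNA and RNA, and NSUN2 is a methyltransferase that puts methyl groups on cytosines in RNA.

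H2AK119ub at the Irx genes of mESCs was listed as short separate stretches rather than one domain across a cluster. Each mESC library held 2 to 29 peaks per cluster, with median widths of 252 to 619 bp and a widest peak of 1127 bp. Merged over the 27 mouse libraries these peaks made 110 regions, 45 of which came from 1 library only, and 22 regions were seen in at least 9 libraries. The observed over expected CG ratio of these 22 regions ranged from 0.0688 to 0.817, with a median of 0.446. The sequences below are the stretches shared by most libraries in the regions on which the results turn on the Irx1, Irx2 and Irx4 side, read from mm10 on the plus strand, with each CG in capitals.

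The first lies in the coding exon of Irx1, 4.38 kb into the gene (chr13:71959300-71959599, 23 CG), and was marked in every mESC library. The second lies just before the Irx2 TSS (chr13:72628593-72628761, 11 CG) between Irx2 and the lincRNA gene Gm20554, which are read in opposite directions, and the third before Irx4 in intergenic sequence, at -100.2 kb (chr13:73160293-73160556, 16 CG). The fourth, in the coding part of Irx4 8.39 kb into the gene (chr13:73268828-73269014, 14 CG), lies outside the Irx4 window. The last (chr13:72391993-72392175, 10 CG) is shown because peaks of both BAP1 libraries overlap there.
Irx1 coding exon: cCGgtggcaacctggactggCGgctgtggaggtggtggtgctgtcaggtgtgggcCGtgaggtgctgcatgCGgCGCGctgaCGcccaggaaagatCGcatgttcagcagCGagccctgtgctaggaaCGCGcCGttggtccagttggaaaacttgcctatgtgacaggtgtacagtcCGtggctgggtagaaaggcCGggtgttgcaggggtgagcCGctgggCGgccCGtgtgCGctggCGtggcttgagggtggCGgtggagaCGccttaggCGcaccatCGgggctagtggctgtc
Irx2 start side: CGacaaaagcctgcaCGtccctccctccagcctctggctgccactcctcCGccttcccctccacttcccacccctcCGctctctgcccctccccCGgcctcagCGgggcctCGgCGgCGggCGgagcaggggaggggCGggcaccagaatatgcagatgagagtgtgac
Irx4 upstream: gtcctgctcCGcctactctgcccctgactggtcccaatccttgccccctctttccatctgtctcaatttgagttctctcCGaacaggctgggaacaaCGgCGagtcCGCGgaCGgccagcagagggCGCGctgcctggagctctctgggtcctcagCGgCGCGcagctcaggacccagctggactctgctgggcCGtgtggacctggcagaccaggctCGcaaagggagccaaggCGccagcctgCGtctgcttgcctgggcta
Irx4 coding exon: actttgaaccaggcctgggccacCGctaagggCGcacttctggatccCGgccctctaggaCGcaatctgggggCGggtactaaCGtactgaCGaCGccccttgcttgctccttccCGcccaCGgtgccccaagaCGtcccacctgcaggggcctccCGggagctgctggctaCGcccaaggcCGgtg
BAP1 overlap: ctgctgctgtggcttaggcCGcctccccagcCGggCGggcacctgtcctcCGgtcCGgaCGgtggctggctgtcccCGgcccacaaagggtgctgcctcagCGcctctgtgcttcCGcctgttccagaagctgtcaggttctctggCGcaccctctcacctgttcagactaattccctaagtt

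The Irx windows are rich in CG, with 244 (Irx6) to 517 (Irx3) CG dinucleotides per 10 kb against a median of 151 over all windows. In untransfected WT mESCs Irx2 had the highest mean cover of the 6, 1.00 ± 0.158 kb (SD, n = 3), followed by Irx6 (0.881 ± 0.448 kb), Irx1 (0.765 ± 0.198 kb), Irx5 (0.695 ± 0.127 kb), Irx3 (0.674 ± 0.0885 kb) and Irx4 (0.336 ± 0.299 kb). Neighbours in this order differed by less than their spread, apart from Irx3 and Irx4, whose libraries also did not overlap. Set among all windows these means stood at the 98.5th (Irx2), 96.8th (Irx6), 93.6th (Irx1), 90.8th (Irx5), 89.6th (Irx3) and 58.5th (Irx4) percentile, with 64.7% of windows covered at all.

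**Figure D1:**
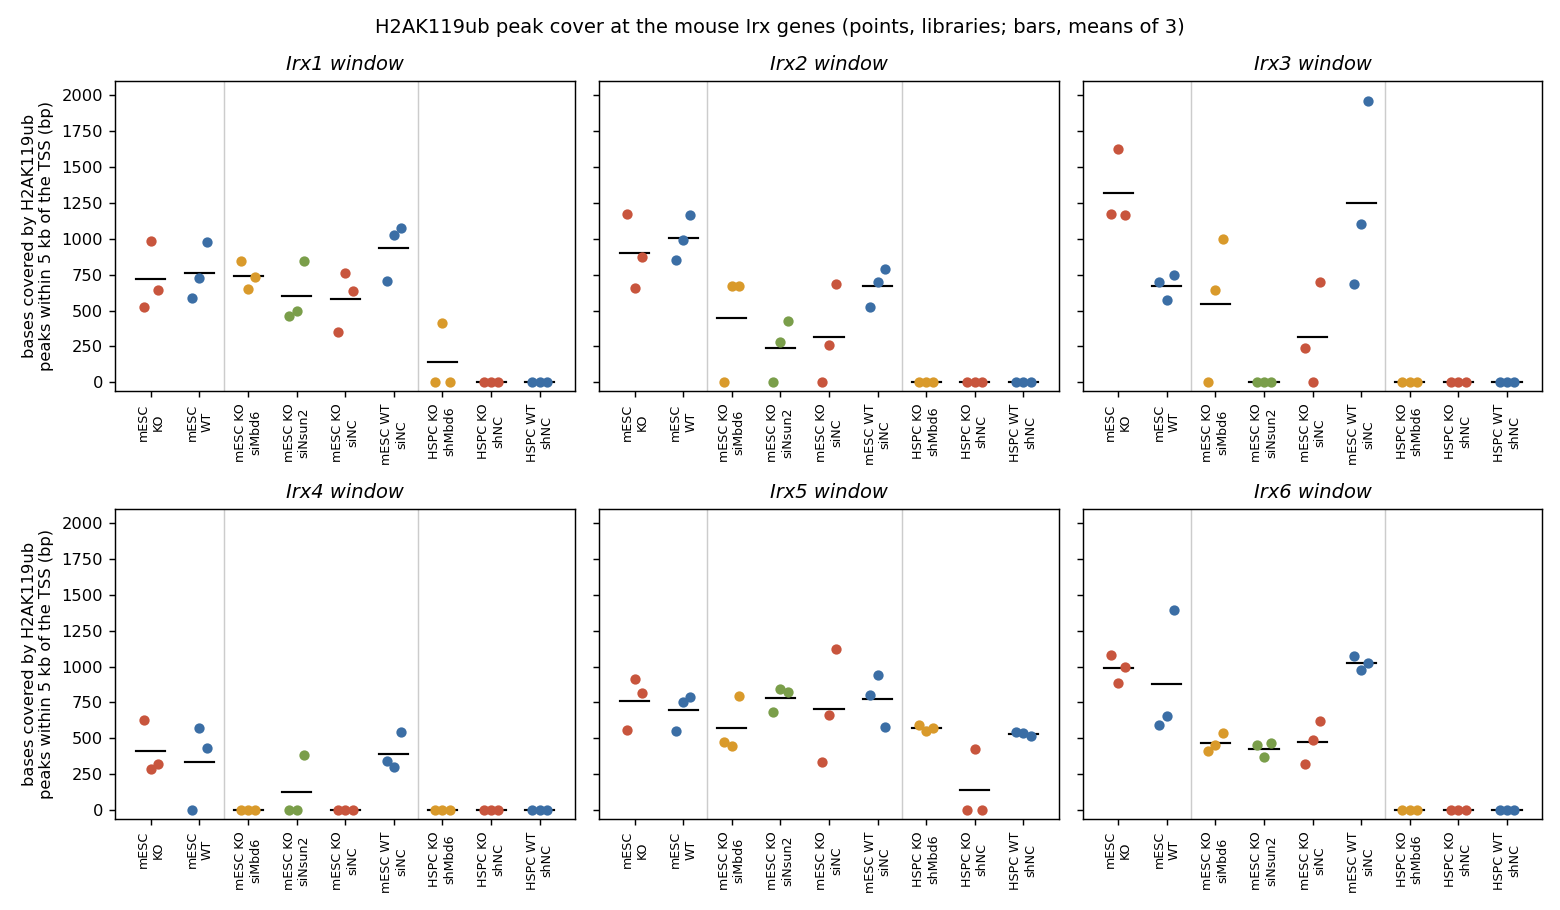
Bases covered by H2AK119ub peaks in the 10-kb TSS window of each mouse Irx gene, 1 point per library with bars at the group mean. In HSPC libraries only the Irx5 window, at 425 to 591 bp where listed, and the Irx1 window of 1 shMbd6 library were covered.

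The marked stretches rarely lay over the TSS itself. Of 18 mESC libraries, a peak covered the TSS in 3 for Irx2, 3 for Irx5, 2 for Irx3 and none for Irx1, Irx4 or Irx6. A peak came within 500 bp of the TSS in all 18 for Irx6, 11 for Irx2, 3 for Irx5, 2 for Irx3, 2 for Irx4 and none for Irx1. Positions were gene-specific and recurred between libraries. Irx1 was marked about 4.4 kb into the gene, Irx6 about 0.58 kb before its TSS and Irx3 about 4.2 kb from its TSS, just past the 3' end of the gene, while the Irx5 window was marked about 1.34 kb before its TSS.

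**Figure D2:**
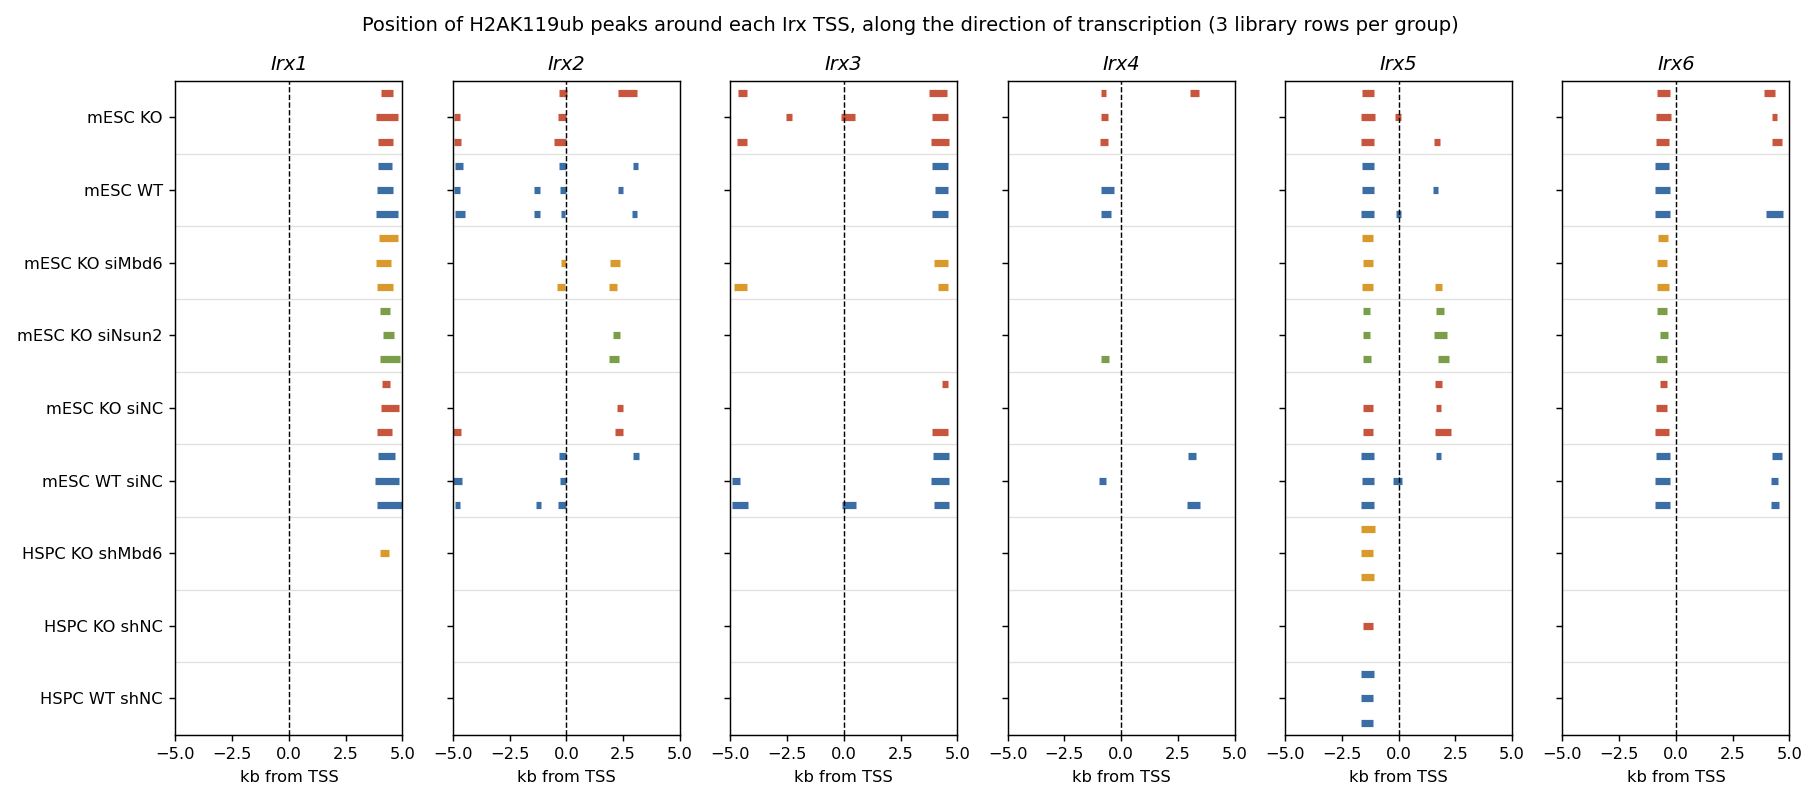
Position of each H2AK119ub peak within 5 kb of the TSS of each mouse Irx gene, in kb along the direction of transcription, with 3 library rows per group and a dashed line at the TSS. The peaks of Irx1 lie about 4.4 kb after the TSS and those of Irx6 about 0.58 kb before it in all 18 mESC libraries.

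In untransfected mESCs, where the question is what TET2 loss does at steady state, the Irx genes kept their mark and Irx3 was the 1 member whose groups stood apart. The Irx3 window held 1176, 1624 and 1166 bp in KO mESCs, against 700, 575 and 746 bp in WT mESCs. Each KO library was above each WT library, a pattern that 8.09% of the 12820 windows tested also showed. The difference was 0.648 kb (SE 0.142, 95% interval 0.303 to 0.994) and was not called at a limma adjusted p of 0.341 (unadjusted 0.00365). On the scaled values it was 0.535 kb (adjusted p = 0.628).

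The added Irx3 bases came from stretches other than the recurrent one. In that region past the 3' end KO libraries held 801, 709 and 753 bp and WT libraries 700, 575 and 746 bp, and the groups overlapped. The plot of peak positions shows further KO peaks about 4.5 kb before the TSS in replicates 1 and 3, and over the TSS and at -2.42 kb (286 bp) in replicate 2. These were weak, at 2.21- to 2.57-fold enrichment and a -log10 q of 2.06 to 3.12. Nor were all of their places particular to KO cells. WT siNC mESCs listed peaks in the same region before the TSS in replicates 2 and 3, and over the TSS in replicate 3.

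None of the 6 windows was called in untransfected mESCs, against 0.0234% of all windows (3 windows, with 710 at an unadjusted p under 0.05, of which Irx3 was 1). The 6 differences ran from -0.106 to 0.648 kb with a median of 0.0688 kb. Their 95% intervals reached from -0.480 to 0.994 kb, which takes in changes about as large as the cover of a window. Over both clusters KO mESCs had 15.1, 20.1 and 20.3 kb covered and WT mESCs 9.71, 20.9 and 21.96 kb. The exact two-sided permutation p was 1, and the sign of the difference rests on WT replicate 1, the sparsest of the 6 libraries: it was 1.01 kb with it and -2.89 kb without it. On the scaled values the difference was -0.0536 kb, and limma called 0 of the 6 windows, 1 of them at an unadjusted p under 0.05. Of 38 cluster regions marked in at least 2 of 3 WT libraries, 30 (78.9%) were also marked in at least 2 of 3 KO libraries, beside 76.2% of regions over the whole genome.

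With the control siRNA, KO mESCs had less of the mark than WT mESCs at Irx6, Irx4, Irx3 and Irx1, and the total covered length of the same libraries was lower too. On the scaled values the difference at Irx4 was -0.179 kb (limma adjusted p = 0.346), while those at Irx6, Irx3 and Irx1 had the opposite sign, at 0.43, 0.0870 and 0.67 kb, and none of these 4 was called. The Irx6 window held 322, 489 and 619 bp in KO siNC mESCs, against 1076, 979 and 1025 bp in WT siNC mESCs. All 3 KO libraries were lower, by 0.55 kb (SE 0.0706, limma adjusted p = 8.69e-05). In WT siNC libraries the window carried a further peak about 4.2 to 4.7 kb after the TSS, and KO siNC libraries listed none there.

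Irx4 had the lowest mean cover of the 6 in each mESC group except siNsun2, where Irx3 was listed at 0 in all 3 libraries. The Irx4 window was listed at 0 in all 3 KO siNC libraries, against 338, 302 and 540 bp in WT siNC mESCs. The difference was -0.393 kb (SE 0.0996, limma adjusted p = 0.00575), where a group at 0 adds no spread to the fit and the p may be too small. The call missed the threshold without WT siNC replicate 3 (limma adjusted p = 0.0543). Outside WT siNC only 1 library of the experiment, siNsun2 replicate 3, covered the window. Irx4 thus entered the test only through the group where it is high, and its call adds no support.

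Irx3 held 242, 0 and 699 bp in KO siNC mESCs, against 682, 1100 and 1962 bp in WT siNC mESCs. The ranges met, since the highest KO library lay above the lowest WT library. The difference of -0.934 kb (SE 0.341) was called (limma adjusted p = 0.0324) but not without WT siNC replicate 3 (-0.577 kb, adjusted p = 0.0944), KO siNC replicate 1 (0.0789) or KO siNC replicate 2 (0.0991).

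Irx1 held 351, 764 and 634 bp in KO siNC mESCs, against 707, 1027 and 1075 bp in WT siNC mESCs. The difference of -0.353 kb (SE 0.143) passed narrowly (limma adjusted p = 0.0486). It failed without WT siNC replicate 2 (0.143) or 3 (0.165), or without KO siNC replicate 1 (0.173) or 3 (0.0723), and with no filter on low values (0.0522).

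Irx2 and Irx5 were not called. Irx2 held 0, 261 and 688 bp in KO siNC mESCs, against 526, 699 and 791 bp in WT siNC mESCs (difference -0.356 kb, SE 0.220, limma adjusted p = 0.165). Irx5 held 332, 664 and 1122 bp in KO siNC mESCs, against 799, 943 and 575 bp in WT siNC mESCs (difference -0.0663 kb, SE 0.185, limma adjusted p = 0.746), and its 95% interval of -0.483 to 0.350 kb covers changes in both directions.

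In all, 4 of 6 Irx windows were called lower in KO siNC mESCs, beside 71.9% of the 10756 windows tested. For 2 of 6, Irx4 and Irx6, the KO siNC libraries all lay below the WT siNC libraries, beside 73.6% of all windows. The median difference was -0.374 kb for the 6 and -0.418 kb for all windows. The share of members called was thus close to that of all windows. Irx4, counted in both, was in the test only through its WT siNC cover. The total covered length moved with genotype here, 1.82 to 4.30 Mb in KO siNC and 10.0 to 17.0 Mb in WT siNC libraries. After scaling, the median of all windows was -0.145 kb, none of the 6 was called lower, and Irx5 was the 1 member called higher (0.90 kb, SE 0.286, limma adjusted p = 0.0327), beside 2.64% of windows called higher.

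Summed, the 6 Irx windows held a larger share of what was left in KO siNC mESCs. Their cover was 0.168%, 0.134% and 0.225% of the cover of all windows in KO siNC libraries, against 0.0824%, 0.0680% and 0.0829% in WT siNC libraries, with no overlap (a description with no test). It was 0.162%, 0.158% and 0.158% with siMbd6 and 0.220%, 0.151% and 0.193% with siNsun2, whose lists are short too. How often other sets of 6 windows gain share in this way was not counted. The ratio of mean cover, KO siNC over WT siNC, was 0.914 for Irx5, 0.623 for Irx1, 0.471 for Irx2, 0.464 for Irx6, 0.251 for Irx3 and 0 for Irx4. For the 6 windows summed it was 0.475, and for all windows summed 0.206.

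Over both clusters KO siNC mESCs had 1.90, 4.87 and 5.44 kb covered, against 12.5, 19.7 and 22.5 kb in WT siNC mESCs. The groups did not overlap and the ratio of their means was 0.223 (exact two-sided permutation p = 0.1, the smallest that 3 against 3 allows). On the scaled values the difference was -0.755 kb. Of 35 cluster regions marked in at least 2 of 3 WT siNC libraries, 7 (20%) were also marked in at least 2 of 3 KO siNC libraries, beside 14.6% over the genome.

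Single regions differed in whether they were kept. Each printed stretch is the core of a longer merged region, and these values are for the whole regions. The Irx1 coding region (1162 bp) was covered by 351, 764 and 634 bp in KO siNC libraries, against 707, 1027 and 1075 bp in WT siNC libraries. The far upstream Irx4 region (915 bp) was covered by 522, 571 and 0 bp in KO siNC libraries, at 4.21- and 4.32-fold enrichment where listed, against 704, 706 and 586 bp in WT siNC libraries. The Irx2 start region (574 bp) was listed at 0 in all 3 KO siNC libraries, against 276, 293 and 333 bp in WT siNC libraries. An intergenic region 9.95 kb after the Irx2 TSS was covered by 376, 329 and 377 bp in KO siNC libraries and by 341, 317 and 0 bp in WT siNC libraries, and one in the Irx5 gene 1.91 kb after its TSS by 332, 236 and 705 bp in KO siNC and 219, 0 and 0 bp in WT siNC libraries. Of the 22 recurrent regions, 10 were marked in at least 2 of 3 KO siNC libraries and 20 in at least 2 of 3 WT siNC libraries. These regions were kept for being listed in at least 9 of these same libraries. The choice thus favours groups with long lists, such as WT siNC, and the 2 counts are no test of a loss. No genome share was computed for regions chosen in this way.

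**Figure D3:**
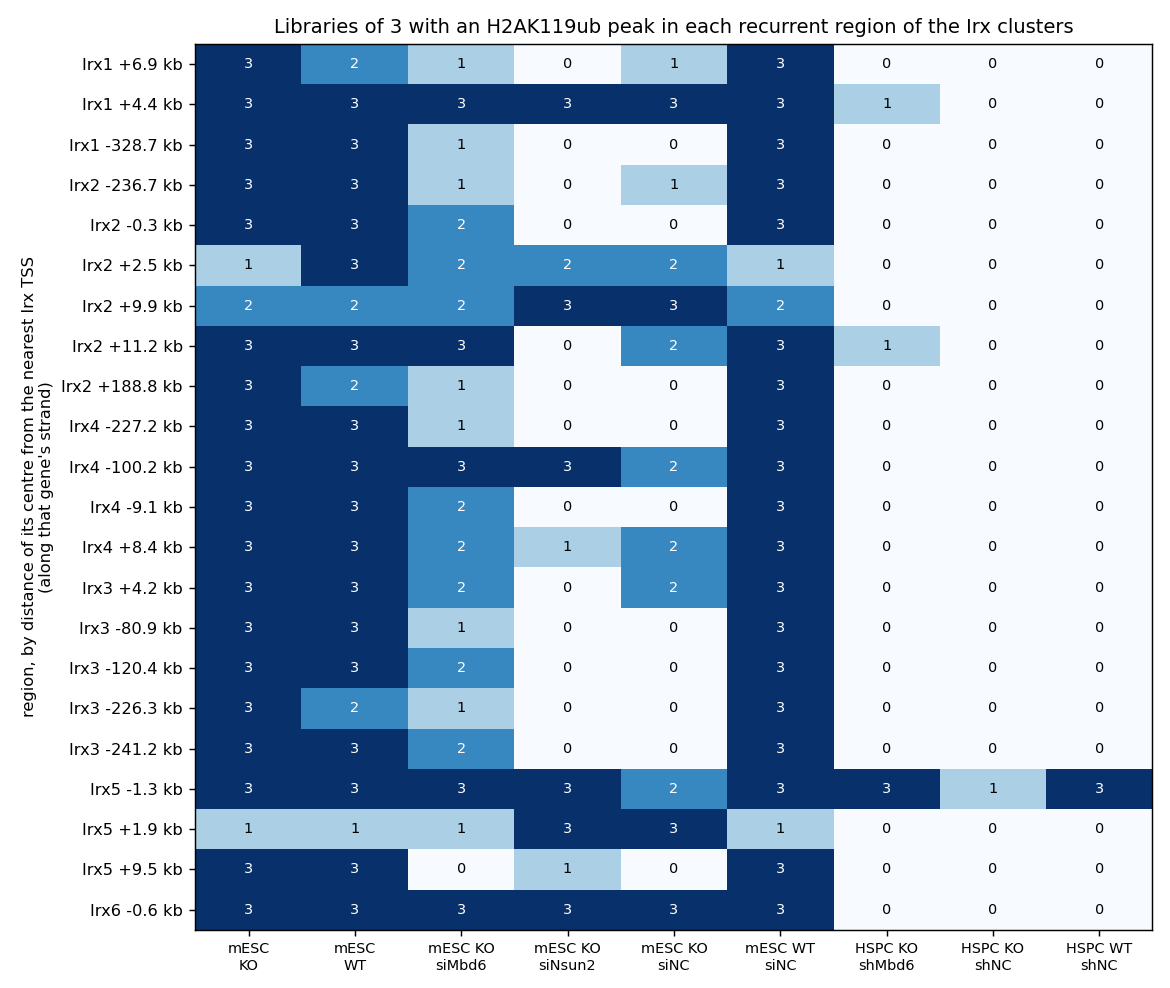
Number of libraries of 3 with a peak in each of the 22 recurrent regions of the mouse Irx clusters, by group, with rows named by the distance of the region's centre from the nearest Irx TSS. The Irx1 +4.4 kb and Irx6 -0.6 kb rows are at 3 in all 6 mESC groups, and in HSPCs the Irx5 -1.3 kb row is at 3 in the shMbd6 and WT shNC groups and at 1 with shNC in KO cells, while the Irx1 +4.4 kb and Irx2 +11.2 kb rows are at 1 with shMbd6.

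The KO effect differed between the siNC and the untransfected experiments at Irx3 and Irx6. The Irx3 difference of differences was -1.58 kb (SE 0.407, limma adjusted p = 0.00639) and that of Irx6 -0.658 kb (SE 0.218, adjusted p = 0.0243). These were 2 of 6 windows, beside 45% of the 13874 windows tested called lower, and none of the 6 was called after scaling, where 1 had an unadjusted p under 0.05. Irx6 was not called without WT replicate 1 (limma adjusted p = 0.0675) or 2 (0.0584), or without KO siNC replicate 1 (0.0631). Transfection and experiment cannot be told apart in this contrast.

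Knockdown of Mbd6 or Nsun2 in KO mESCs left the Irx windows without a call, and both comparisons use the same KO siNC libraries as the one above. With siMbd6 the Irx3 window held 0, 643 and 1002 bp, against 242, 0 and 699 bp with siNC. The Irx2 window held 0, 669 and 672 bp with siMbd6, against 0, 261 and 688 bp with siNC. Irx4 was listed at 0 in every library of both groups. Over the 6 windows differences ran from -0.135 to 0.235 kb, with 95% intervals from -0.551 to 1.00 kb. limma called 0 of 6 (0 at an unadjusted p under 0.05), beside 0.177% of all windows in either direction, and 0 of 6 on the scaled values. Irx4, at 0 in both groups, could not have been called. Windows could enter the test through WT siNC cover, and 23.2% of all windows were covered in KO siNC against 64.4% in WT siNC libraries. The shares given for siMbd6 and siNsun2 thus include windows listed at 0 in both groups compared.

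The clusters as a whole had 3.55, 5.78 and 7.78 kb covered with siMbd6, against 1.90, 4.87 and 5.44 kb with siNC, so the groups overlapped (ratio of means 1.40, exact two-sided permutation p = 0.4). Within each replicate number the siMbd6 library lay above the siNC library, an order that this unpaired test leaves out. On the scaled values the siMbd6 libraries all lay above the siNC libraries, by a mean of 1.70 kb (exact two-sided permutation p = 0.1, the smallest that 3 against 3 allows). How often other stretches of the genome show either pattern was not counted. The unscaled difference of 1.64 kb was 2.71 kb without siMbd6 replicate 1, 0.597 kb without siMbd6 replicate 3 and 0.551 kb without siNC replicate 1. Of the 10 cluster regions marked in at least 2 of 3 siNC libraries, 9 (90%) were also marked with siMbd6, beside 76.3% over the genome. The Irx2 start region of 574 bp, listed at 0 in each siNC library, was covered by 0, 226 and 339 bp with siMbd6. Of the 22 recurrent regions, 13 were marked in at least 2 of 3 siMbd6 libraries, 7 in at least 2 of 3 siNsun2 libraries and 10 in at least 2 of 3 siNC libraries. No genome share was computed beside these counts.

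With siNsun2 the Irx3 window was listed at 0 in all 3 libraries, against 242, 0 and 699 bp with siNC, and Irx2 held 0, 281 and 427 bp, against 0, 261 and 688 bp with siNC. Irx5 held 681, 843 and 825 bp with siNsun2, against 332, 664 and 1122 bp with siNC, and the ranges overlapped. The 6 differences ran from -0.314 to 0.128 kb, with 95% intervals from -1.08 to 0.493 kb. limma called 0 of 6 (0 at an unadjusted p under 0.05), beside 0.0186% of windows, and 0 of 6 on the scaled values. Cluster cover was 2.59, 4.47 and 5.67 kb with siNsun2, against 1.90, 4.87 and 5.44 kb with siNC (exact two-sided permutation p = 0.9). The difference was 0.176 kb, and 0.861 kb on the scaled values (exact two-sided permutation p = 0.2), and it was negative without siNsun2 replicate 3 (-0.536 kb) or siNC replicate 1 (-0.907 kb). The region 11.2 kb after the Irx2 TSS was listed at 0 in all siNsun2 libraries, against 0, 444 and 348 bp with siNC, and of 10 siNC regions 7 (70%) were kept, beside 69.1% over the genome.

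**Figure D4:**
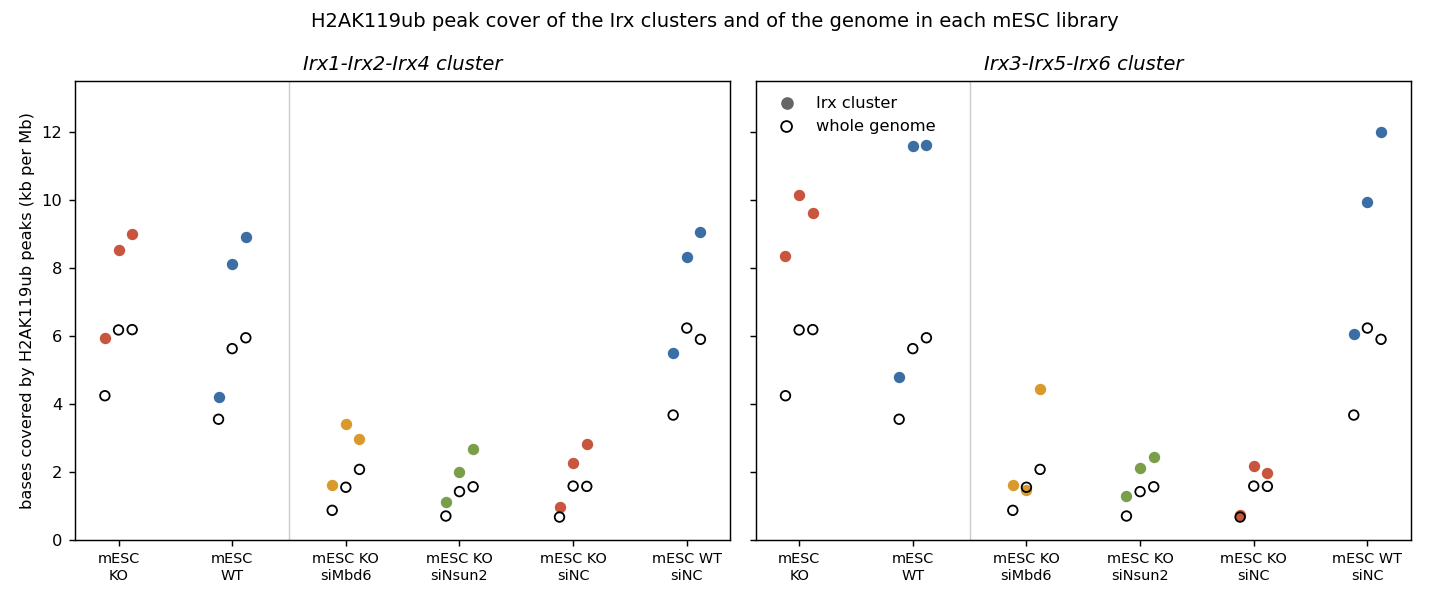
Bases covered by H2AK119ub peaks per Mb in each Irx cluster (filled points) and in the whole genome (open circles), 1 pair per mESC library. The Irx1-Irx2-Irx4 cluster lies above the genome in 18 of 18 libraries, at 1.18 to 2.21 times its density, and the Irx3-Irx5-Irx6 cluster in 17 of 18.

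The most widely shared peak of the Irx clusters lay over the start of Crnde, a non-coding RNA gene read away from Irx5, 1505 bp before the Irx5 TSS. It was listed in 24 of 27 mouse libraries and in 7 of 9 HSPC libraries. Its fold enrichment was 4.84, 4.54 and 4.53 in untransfected KO mESCs, against 5.24, 4.47 and 4.66 in WT mESCs, which overlap. Among transfected mESCs it was 3.76, 3.35 and 3.23 with siMbd6, 3.68, 3.20 and 3.07 with siNsun2 and 2.99 and 2.68 in the 2 KO siNC libraries that list it, against 4.79, 4.30 and 4.33 in WT siNC libraries. The KO libraries of these 3 groups all lay below the WT siNC libraries, and all 18 mESC lists but 1, KO siNC replicate 1, held the peak. Their lists are also shorter, at 2.36 to 5.64 Mb (siMbd6), 1.90 to 4.25 Mb (siNsun2) and 1.82 to 4.30 Mb (siNC), against 10.0 to 17.0 Mb in WT siNC. How many other peaks were lower in the same way was not counted. The -log10 q followed the same order, from 4.01 to 6.21 in the siMbd6 and siNsun2 libraries, 3.89 and 3.05 in the KO siNC libraries and 12.7 to 13.7 in the WT siNC libraries.

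**Figure D5:**
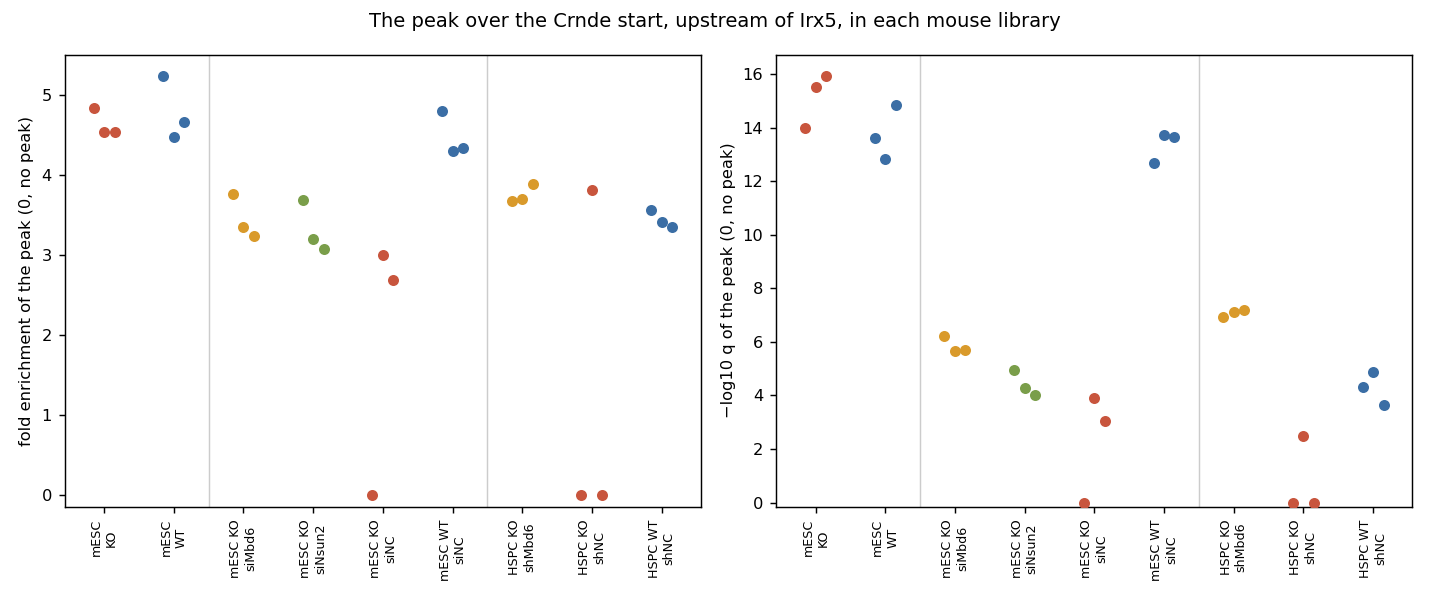
Fold enrichment and -log10 q, as deposited, of the peak over the Crnde start 1505 bp before the Irx5 TSS, 1 point per mouse library, with libraries that list no peak at 0. Only KO siNC replicate 1 and KO shNC replicates 1 and 3 are at 0.

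In HSPCs this Crnde peak was all that the Irx clusters held with shNC and 0.591, 0.547 and 0.574 kb of the 0.591, 0.960 and 0.874 kb they held with shMbd6. Cover of the Irx5 window was lower in KO than in WT cells and higher with shMbd6 than with shNC. The Irx5 window held 0, 425 and 0 bp in KO shNC HSPCs, against 546, 533 and 513 bp in WT shNC HSPCs. The 2 groups did not overlap, as in 28.6% of the 4242 windows tested. The difference was -0.389 kb (SE 0.109, limma adjusted p = 0.0323), a call shared by 22.7% of windows. It was lost when any 1 of 5 libraries was left out (all but KO shNC replicate 2, limma adjusted p 0.0561 to 0.118) and on the scaled values (-0.121 kb, adjusted p = 0.860).

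With shMbd6 the Irx5 window held 591, 547 and 574 bp, against 0, 425 and 0 bp with shNC in KO HSPCs. The groups did not overlap, as in 72.8% of windows. The difference was 0.429 kb (SE 0.109, limma adjusted p = 0.00807), a call shared by 72% of windows, and on the scaled values it was -0.116 kb (adjusted p = 0.799). The total covered length moves with these groups as given above. The other 5 Irx windows were too seldom covered to test. They were listed at 0 in every HSPC library except Irx1 in shMbd6 replicate 2 (413 bp). Fold enrichment of the Crnde peak was 3.67, 3.70 and 3.88 with shMbd6 and 3.80 in the 1 KO shNC library that lists it, against 3.56, 3.40 and 3.35 in WT shNC HSPCs.

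In K-562 cells the IRX clusters lie on hg38 chromosome 5 (1877413 to 3601403) and chromosome 16 (54283304 to 55330756). Each library listed 0 to 2 peaks per cluster, at 0 to 2.17 times the density of the genome, a ratio that so few peaks make coarse. None of the 6 IRX windows was covered in the 3 libraries that a test needed. IRX5 was listed in KO siNC replicate 3 (282 bp) and in WT siNC replicate 1 (307 bp), and the other windows in no library. The CRNDE start lies 1676 bp before the IRX5 TSS. The KO siNC peak began just on the IRX5 side of it, and the WT siNC peak covered it. The mouse region of 630 bp and the human region of 362 bp aligned over 317 bp with 240 identical bases (75.7%). An intergenic region at -161 kb from the IRX3 TSS (chr16:54447885-54448413, 11 CG) was listed in 8 of 12 K-562 libraries. It was covered by 510, 369 and 0 bp with siMBD6, 280, 378 and 315 bp with siNSUN2 and 296, 0 and 335 bp with siNC in KO cells, against 0, 422 and 0 bp in WT siNC cells.

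The stretch shared by the 2 peaks beside the CRNDE start, which it does not reach (chr16:54929195-54929421, 17 CG) is printed from hg38 on the plus strand, with CG in capitals, since it lies in the human region aligned with the mouse one.
Beside CRNDE start: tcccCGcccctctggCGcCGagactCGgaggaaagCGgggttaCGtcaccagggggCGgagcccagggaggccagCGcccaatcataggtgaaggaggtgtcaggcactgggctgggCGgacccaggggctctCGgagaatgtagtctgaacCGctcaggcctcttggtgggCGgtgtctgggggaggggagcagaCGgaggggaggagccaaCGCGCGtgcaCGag

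The 2 IRX clusters together had 1.21, 0.793 and 0.282 kb covered with siMBD6, 1.03, 0.803 and 0.788 kb with siNSUN2 and 0.981, 0.364 and 0.922 kb with siNC in KO cells, against 0.64, 0.712 and 0.328 kb in WT siNC cells. Exact two-sided permutation tests gave p = 1 for siMBD6 and p = 0.8 for siNSUN2 against siNC in KO cells, and p = 0.5 for KO siNC against WT siNC, each with overlapping groups. On the scaled values the differences were -0.325, -0.330 and 0.280 kb in the same order. The unscaled siMBD6 difference of 0.00467 kb was negative without siMBD6 replicate 1 (-0.218 kb) or 2 (-0.0117 kb) or KO siNC replicate 2 (-0.191 kb), and that of siNSUN2, 0.119 kb, without KO siNC replicate 2 (-0.0772 kb).

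BAP1 was listed at 1 place in the mouse Irx clusters, the intergenic stretch 237 kb before Irx2 printed above. The peaks of the 2 libraries, 292 and 403 bp at 4.41- and 4.50-fold enrichment, shared 183 bp, all of it soft-masked as repeat sequence. The H2AK119ub region around it was covered by 444, 1041 and 670 bp in untransfected KO mESCs and 812, 846 and 929 bp in WT mESCs. In transfected cells it was covered by 577 bp in 1 siMbd6 library, by none in siNsun2 and by 625 bp in 1 KO siNC library, against 638, 640 and 889 bp in WT siNC mESCs.

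Other TALE homeobox genes, the class to which Irx belongs, gave 4 lower of 9 tested of 12 in KO siNC against WT siNC mESCs, with a median of -0.329 kb, beside 71.9% of all windows called lower. The smallest p-values were those of Tgif2 (-0.329 kb, limma adjusted p = 0.00119), Pknox1 (0.00359) and Pbx4 (0.00544), transcription factors of the TGIF, PREP and PBX families. None of 12 was called in untransfected mESCs and none of 9 with siMbd6 or siNsun2. In HSPCs Pknox1 was the 1 of 4 tested called lower in KO shNC against WT shNC, beside 22.7% of all windows, and 3 of 4, led by Pknox1, were called higher with shMbd6, beside 72% of all windows.

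Of 36 genes whose TSS lies within 1 Mb outside the clusters, 19 could be tested in siNC mESCs. Of these, 15 were lower in KO siNC, beside 71.9% of all windows and with Fto and Rpgrip1l, whose starts share a window, counted as 2 genes. A further pair among the 15, whose starts nearly coincide, was also counted as 2 genes. The 15 were led by Exoc3 (-0.487 kb), Cep72 (-0.436 kb) and Lpcat2 (-0.713 kb), while 1 of the 19, Ces1g, was higher (0.481 kb, limma adjusted p = 0.00965), named after its value was seen. None of 21 was called in untransfected mESCs. In HSPCs Fto and Rpgrip1l were the 2 of 6 called lower in KO shNC (-0.458 kb, limma adjusted p = 0.00779), beside 22.7% of all windows. They, Chd9, Brd9 and Trip13 were the 5 of 6 called higher with shMbd6, beside 72% of all windows, where Brd9 and Trip13 also had the same value for both and were named after their values were seen. In K-562 cells no tested gene of either list was called.

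The genes most like the mean of the Irx windows over the 27 mouse libraries, on scaled cover, were Htr1a (Pearson r = 0.847), Pcdhb21 (0.845) and Evx2 (0.839), of 13170 genes compared with a median r of -0.167. They encode a serotonin receptor, a protocadherin and a homeodomain protein of the Hoxd locus, and each was covered in 18 libraries. The members themselves gave r of 0.823 (Irx6), 0.779 (Irx1), 0.487 (Irx5), 0.473 (Irx2), 0.405 (Irx3) and 0.0833 (Irx4). Each member is part of the mean it is compared with, which raises its r, so these are not on a par with the genes above. These values share library and cell type, so they are a description over 27 libraries.

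RefSeq promoters (GRCm38, 250 bases before to 50 after the gene start) were found for Irx2, Irx3 and Irx4. They held 25, 14 and 31 CG in that order, against a median of 7. The motif ACANNTGT, the site known for the Drosophila Iroquois protein Mirror, which reads the same on both strands, was matched in none of the 3 and in 7.38% of all 32851 promoters.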

How the data were processed

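CUT&Tag libraries of H2AK119ub (39) and BAP1 (2) were used, grouped by GEO's labels alone. The authors trimmed reads with Trimmomatic 0.39, mapped them with Bowtie2 2.4.1 to mm10 or hg38 together with the Drosophila spike-in genome, removed duplicates with Picard and called broad peaks per library with MACS2 (broad cutoff 0.01). The deposited score of each peak, its deposited fold enrichment over local background and its deposited −log10 p and −log10 q were made by the authors with MACS2. Spike-in scaling is not part of the peak lists, and their depth is unknown.

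Covered bases per 10-kb TSS window (GENCODE vM21 and v44) and per cluster were computed with Python 3.11.15 and NumPy 2.4.6, and sequences were read with pysam 0.24.0 and aligned with Biopython 1.88. A window entered the test where 3 or more of an experiment's libraries covered it, and covered kb was fitted with limma 3.58.1 (R 4.3.3), all H2AK119ub groups of an experiment in 1 model, two-sided, with Benjamini-Hochberg adjustment over all windows tested and a call at an adjusted p under 0.05. The script was tested on simulated data. Clusters were compared with exact two-sided permutation tests (SciPy 1.17.1), and figures drawn with matplotlib 3.10.9.

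The 6 members are always named. Up to 3 genes of each list were named by smallest adjusted p, and the 3 most alike genes by Pearson r outside the clusters. Alternatives were equal total covered length, peaks of −log10 q of 5 or more, windows of 2.5 or 10 kb to each side, no filter on low values, clusters widened by 50 kb, a replicate block and leaving out each library. Members and lists were chosen with earlier results of these data known. A gene and a human region are not reported here.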

Additional observations from a re-analysis of the deposited data

Results flagged for a closer look

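At Irx3 the effect of TET2 loss differed between the siNC and the untransfected mESCs by -1.58 kb (limma adjusted p = 0.00639), with KO above WT in untransfected cells and below it with siNC. At Irx6 the same difference of effects was -0.658 kb (limma adjusted p = 0.0243). Both were picked out because a direct test of the difference between the experiments passed. Total covered length moved with the groups (1.82 to 4.30 Mb in KO siNC, 10.0 to 17.0 Mb in WT siNC, 11.6 to 16.9 Mb in untransfected KO and 9.66 to 16.2 Mb in untransfected WT libraries). After scaling to equal total length the values were -0.21 kb for Irx3 and 0.57 kb for Irx6, and neither was called.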

How the results depend on the processing

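Scaling to equal total covered length turned the direction of 5 windows in KO against WT siNC mESCs, to 0.67 kb (Irx1), 0.16 kb (Irx2), 0.0870 kb (Irx3), 0.90 kb (Irx5) and 0.43 kb (Irx6), of which 1 was called. It turned Irx5 with shMbd6 in HSPCs to -0.116 kb and the Irx6 difference of effects to 0.57 kb, and left 0 calls in that contrast, 0 in KO against WT HSPCs and 0 with shMbd6 in HSPCs. Cluster cover under this scaling turned to -0.0536 kb (KO against WT, untransfected mESCs), -0.325 kb (siMBD6, K-562) and -0.330 kb (siNSUN2, K-562). In siNC mESCs peaks of −log10 q of 5 or more left 2 calls, windows of 2.5 kb to each side left 1, and no filter left 3, without Irx1. In KO against WT HSPCs no filter left 0 calls, and so did the −log10 q minimum. That minimum turned cluster cover to -0.565 kb (KO against WT, untransfected mESCs) and -0.166 kb (siNsun2, mESCs). Leaving out 1 library gave 1 to 4 calls in siNC mESCs, 0 to 1 in KO against WT HSPCs and 1 to 2 for the difference of effects. Cluster cover then ranged from -2.89 to 3.23 kb (untransfected mESCs), 0.551 to 2.71 kb (siMbd6, mESCs), -0.907 to 1.00 kb (siNsun2, mESCs), -0.218 to 0.244 kb (siMBD6, K-562) and -0.0772 to 0.231 kb (siNSUN2, K-562), and the Irx5 difference in siNC mESCs from -0.274 to 0.121 kb. The causes of these changes were not tested.

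Replicate numbers did not meet the rule set for pairing, that every same-numbered pair correlate above 0.1 (0.00839 to 0.109 in KO against WT siNC mESCs). Some pairs did correlate, at 0.235, 0.0310 and 0.103 for siMbd6 against siNC and 0.239, 0.0417 and 0.0976 for siNsun2 against siNC. Between different numbers the highest r was 0.0580 and 0.0629. The unblocked mESC tests may therefore leave out some shared replicate structure. With a replicate block 5 of 6 windows were called in siNC mESCs, Irx2 being added (adjusted p = 0.0188 from limma), and 2 for the difference of effects.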

Other observations

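A set of recurrent regions lies far from any Irx gene and holds few CG. Between Irx3 and Irx5, 4 of them stand at -80.9, -120, -226 and -241 kb from the Irx3 TSS, with 10, 4, 9 and 9 CG in 1043, 856, 472 and 697 bp. Each was marked in 3 of 3 untransfected KO and 2 or 3 of 3 untransfected WT mESC libraries. In transfected mESCs each was marked in 1 or 2 of 3 siMbd6 libraries, in 0 of 3 siNsun2 and 0 of 3 KO siNC libraries, and in 3 of 3 WT siNC libraries. An intergenic region at -227 kb from the Irx4 TSS (536 bp, 3 CG) showed the same counts, with 1 of 3 siMbd6 libraries. Regions with more CG were marked in 3 (Irx1 coding, 69 CG in 1162 bp), 2 (Crnde, 50 CG in 630 bp), 1 (the BAP1 overlap, 65 CG in 1274 bp) and 0 (Irx2 start, 43 CG in 574 bp) of 3 KO siNC libraries. Counts did not follow CG content throughout. A region at -137 kb from the Irx4 TSS (524 bp, 1 CG) was listed in 8 libraries. It was marked in 2 of 3 KO siNC and 1 of 3 WT siNC libraries. Regions -329 kb from Irx1 (19 CG) and 9.53 kb after the Irx5 TSS (17 CG) were marked in 0 of 3 KO siNC libraries. Over the genome 14.6% of regions marked in at least 2 WT siNC libraries were kept in at least 2 KO siNC libraries. All these regions were picked after their values were seen, and no test was run on them.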
